A study of Drosophila melanogaster with 3 samples.

Results

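The genes of the Wingless pathway were followed through a chromatin immunoprecipitation and sequencing (ChIP-seq) map of the zinc finger protein Plzf in Drosophila melanogaster. The 10 genes, of 13945 protein-coding genes on the chromosome arms, were listed by name, with earlier results of this map known: wg, fz, fz2, arr, dsh, arm, pan, Axn, sgg and nkd. There was 1 group, of 3 biological replicates: whole prepupae, males and females pooled, of unknown age, from a transgenic line in which Plzf (CG6792) carries GFP at its C terminus and is stably expressed. All 3 replicates carried this transgene, and the sources used here name neither the promoter that drives it nor a line without it, so no contrast between conditions could be made. The antibody was directed against GFP in the description of the samples, whereas their antibody field names CG6792. In whole animals, strong binding in a few cells and weak binding in many cannot be told apart.

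The Wingless pathway is the Drosophila form of canonical Wnt signalling. The secreted ligand Wingless binds a Frizzled receptor together with the co-receptor Arrow, and the cytoplasmic protein Dishevelled then blocks a destruction complex built on the scaffold Axin with the kinase Shaggy. The β-catenin Armadillo escapes breakdown, enters the nucleus and joins the DNA-binding protein Pangolin, and the induced Naked cuticle protein damps the signal in return. The pathway is best known for segment polarity in the embryo and for patterning the imaginal discs, which turn into adult structures around the prepupal stage.

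Regions were assigned to a gene when their summit, the position of the highest enrichment, lay inside the gene or within 5 kb of it. The authors selected 7096 peaks by the irreproducible discovery rate (IDR), a measure of how well the replicates' rankings match, from a pooled list of 30000 regions. The IDR list holds exactly the pooled regions of highest signal, and signal is the peak height on the scale of its own list. Of the 7096 IDR peaks, 55 lay at the 10 genes, in 51 separate intervals, among 207 pooled regions. The lists of replicates 1, 2 and 3, each of 30000 regions, held 193, 214 and 176 regions there.

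The sequences below are the 101 bp around the summit of the strongest IDR peak of 9 of the genes, shown so that strong sites such as that of sgg can be read beside weak ones such as that of Axn. The site of arr is described later by its values, and its sequence is not shown here. Those of dsh, pan and Axn lie outside these genes, in or at CG1737, RpS3A and Mgat2, and that of wg lies beyond its 3′ end. The sequences are the plus strand of dm6 from the RefSeq genome. Capitals mark any match, on either strand, to one of 11 short motifs listed with their frequencies later. They lie at chrX:2646387-2646487 for sgg, chrX:11351482-11351582 for dsh, chr3L:19042619-19042719 for nkd, chr3L:19194184-19194284 for fz2, chr3L:14364843-14364943 for fz, chr2L:7320103-7320203 for wg, chrX:1897579-1897679 for arm, chr4:67207-67307 for pan and chr3R:30021197-30021297 for Axn.
wg: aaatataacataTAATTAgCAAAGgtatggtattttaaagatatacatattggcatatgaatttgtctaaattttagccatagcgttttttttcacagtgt
fz: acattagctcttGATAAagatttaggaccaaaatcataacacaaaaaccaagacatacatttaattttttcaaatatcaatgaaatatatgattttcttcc
fz2: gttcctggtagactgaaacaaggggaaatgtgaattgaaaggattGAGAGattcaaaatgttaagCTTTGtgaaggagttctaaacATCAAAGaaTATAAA
dsh: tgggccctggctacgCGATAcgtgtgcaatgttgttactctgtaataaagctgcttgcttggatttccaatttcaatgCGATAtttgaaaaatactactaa
arm: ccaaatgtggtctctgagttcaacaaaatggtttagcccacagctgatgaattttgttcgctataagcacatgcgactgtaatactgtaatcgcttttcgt
pan: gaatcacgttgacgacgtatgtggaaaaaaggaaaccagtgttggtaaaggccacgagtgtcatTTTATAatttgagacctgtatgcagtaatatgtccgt
Axn: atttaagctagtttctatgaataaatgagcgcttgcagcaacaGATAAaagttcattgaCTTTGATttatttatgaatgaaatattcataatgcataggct
sgg: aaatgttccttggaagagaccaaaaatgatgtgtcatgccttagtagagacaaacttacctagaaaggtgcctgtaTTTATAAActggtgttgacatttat
nkd: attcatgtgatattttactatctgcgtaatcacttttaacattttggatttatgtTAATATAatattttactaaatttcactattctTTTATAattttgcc

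All 10 genes had an IDR peak inside or within 5 kb, but only 7 had one inside. Across all protein-coding genes 52.0% had an IDR peak by the first criterion and 14.2% by the second. Long genes catch more summits, so the genes were also read by length. Of the genes of 20 kb or longer, 74.0% had an IDR peak inside or within 5 kb, as did 6 of the 6 long genes of the pathway (fz, fz2, arr, pan, sgg and nkd). Of shorter genes 50.3% had one, as did all 4 short members (wg, dsh, arm and Axn). A peak inside the gene was held by 59.8% of long genes and by 5 of the 6 long members, all but pan. Among shorter genes 10.7% had a peak inside, as did 2 of the 4 short members, wg and arm. In the windows of dsh, pan and Axn, the only IDR peak lay in or at a neighbouring gene. In the replicates' own lists, cut at the 7096 strongest regions each, 9, 10 and 10 of the genes had a region in the window, and 7 had one inside in each replicate. For dsh, pan and Axn none of these regions lay inside the gene. The shares of all protein-coding genes in each single replicate were not computed. The same 9 genes, all but pan, had a region in the window in all 3 replicates, against 45.1% of protein-coding genes.

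**Figure D1:**
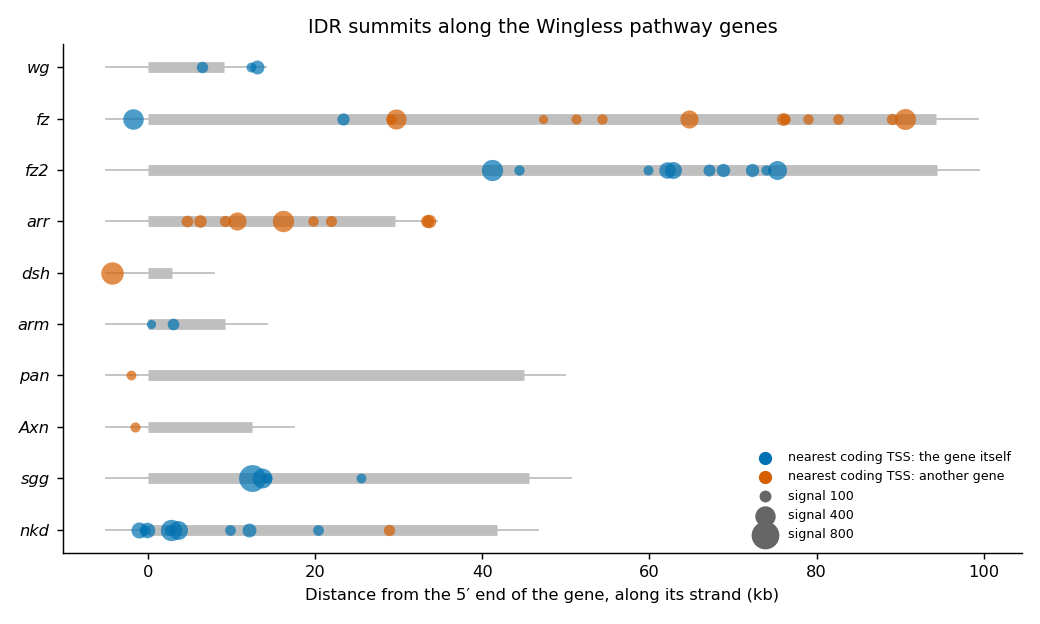
IDR summits along the 10 genes, drawn to scale from the 5′ end of each gene in the direction of transcription (kb). Thick bars are the genes, thin lines the 5 kb on each side, the area of a dot grows with the pooled signal, and colour says whether the nearest coding start site belongs to the gene. The summits of dsh, pan and Axn lie outside the bar, and those of fz2 fall between 41139 and 75276 bp.

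The strongest peak in the window of each gene was compared across the replicates. For dsh, pan and Axn this peak lay outside the gene, in or at a neighbouring gene, and for wg it lay beyond the 3′ end. To set the replicates side by side, each signal was divided by the median signal of the 7096 strongest regions of the same list. On this relative scale sgg came first, at 5.70 ± 0.188 (SD, n = 3), with 5.50, 5.87 and 5.73 in replicates 1, 2 and 3. Next came dsh at 4.03 ± 0.618, arr at 3.59 ± 0.517, nkd at 3.54 ± 0.673, fz2 at 3.42 ± 0.797 and fz at 3.32 ± 0.707, each n = 3. The replicate ranges of these neighbours in the order overlapped, so they were not separated beyond their spread. The lowest sgg value lay above the highest dsh value of 4.74, and the lowest fz value of 2.72 above the highest wg value of 1.70. Each peak was picked as the highest of its window in a list pooled from these same replicates. The windows ran from 12.8 kb for dsh to 104 kb for fz2, and the order of the genes was not tested. The gene wg itself had 1.49 ± 0.195 (n = 3), and arm, pan and Axn had 0.964 ± 0.166, 0.755 ± 0.2002 and 0.639 ± 0.0633 (each n = 3). The range of wg did not overlap that of arm, whereas arm overlapped pan and pan overlapped Axn. In the pooled list, the genes whose strongest peak stood next above and next below that of sgg were CG1792 (864) and GramD1B (861), at places 395 and 397 among 7256 genes. These places count genes, and 1 peak can lie in the windows of several. The strongest window peak of Med, at the promoter of Mnat9, had the same signal as that of CG1792.

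**Figure D2:**
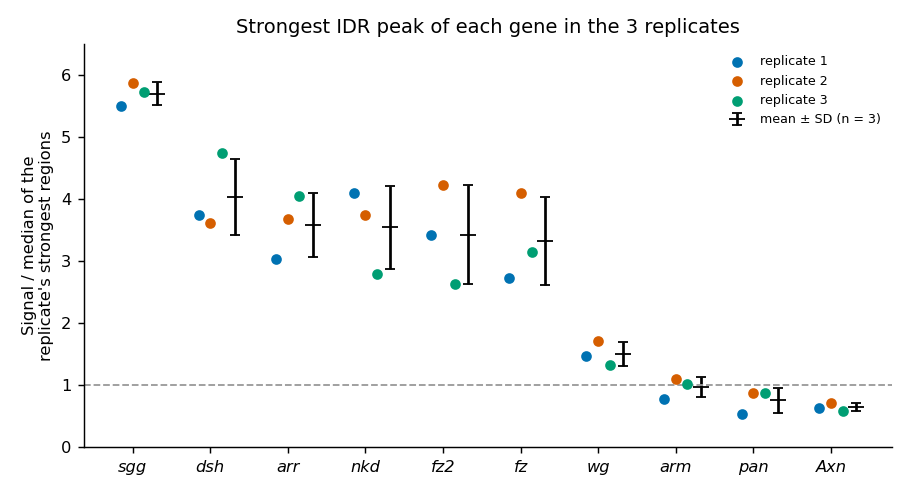
Signal of the strongest IDR peak in the window of each gene, by replicate, divided by the median of that replicate's 7096 strongest regions (no unit). For dsh, pan and Axn this peak lies in or at a neighbouring gene. Dots are replicates, bars the mean ± SD (n = 3), and the dashed line is the median. The gene sgg lies highest, from 5.50 to 5.87, and wg, arm, pan and Axn lie lowest.

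The ligand gene wg (chromosome 2L, 7307159 to 7316265, plus strand) had 3 IDR peaks and none within 500 bp of its transcription start site (TSS). The strongest lay 3888 bp beyond the 3′ end of the gene, from 7320022 to 7320254. Its signal was 216 in the pooled list and 65.1, 109 and 54.1 in replicates 1, 2 and 3. A weaker peak with a signal of 97.7 lay nearby, 3222 bp beyond the 3′ end. The only peak inside wg lay in intron 3 of 4, 6459 bp from the TSS, with a signal of 137 and replicate signals of 46.2, 65.0 and 27.2. All 3 peaks were matched among the strongest regions of all 3 replicates, with a matched region being one whose summit lay within 100 bp.

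The receptor gene fz (3L, 14274343 to 14368639, plus strand), which encodes the Frizzled receptor also used in planar cell polarity, had the most IDR peaks of the 10, with 14. Of protein-coding genes of 20 kb or longer, 2.76% had as many or more, but fz, at 94.3 kb, is far longer than that limit. Per searched kb it had 0.134 IDR peaks, fewer than arr (0.227), nkd (0.193) and wg (0.157). The strongest lay in the last intron, 90550 bp from the TSS (14364717 to 14365073), with a signal of 516 and replicate signals of 121, 262 and 129. A peak 1747 bp upstream of the TSS (14272370 to 14272829) had 493, with 146, 236 and 117 in the replicates. Peaks in intron 1 at 29710 bp from the TSS (14303884 to 14304219) and in intron 4 at 64755 bp (14338948 to 14339223) had signals of 472 and 380.3. The replicates gave 123, 215 and 131 for the former and 108, 178 and 84.0 for the latter. The other 10 peaks had signals of 182 or less. The nearest coding TSS belonged to fz for 2 of the 14 peaks, since the small genes CG13482 and CG13481 lie nearer to the rest. In all 3 replicates 11 of the 14 were matched.

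The second receptor gene, fz2 (3L, 19140975 to 19235373, minus strand), encodes a Frizzled with high affinity for Wingless and had 10 IDR peaks, all in its introns and all with a fz2 TSS as the nearest coding one. The strongest lay 23586 bp upstream of an internal TSS (19194091 to 19194463), with a signal of 529 and replicate signals of 152, 270.1 and 108. A second strong peak lay 10551 bp downstream of the same TSS (19159955 to 19160244), with 420.1 in the pooled list and 114, 190.4 and 114 in the replicates. Between them, peaks 1899 and 2647 bp upstream of that TSS had signals of 330.2 and 309. No fz2 peak lay within 500 bp of any of the 3 annotated TSSs. In all 3 replicates 8 of the 10 were matched.

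The co-receptor gene arr (2R, 13453640 to 13483229, minus strand), the fly LRP5/6, had 9 IDR peaks, 7 of them inside and all of these within intron 2 of its canonical transcript. The strongest lay 16159 bp from the TSS (13466895 to 13467248), with a signal of 536 and 135, 235 and 167 in replicates 1, 2 and 3. The next had 379.7, at 10619 bp (13472433 to 13472646), with replicate signals of 120.2, 151 and 109.7. One inner peak, of signal 173, stood 373 bp from the TSS of the nested gene CG43192. The peaks outside arr both lay within 500 bp of the TSS of cnn, a centrosome gene, at 172 and 397 bp, with signals of 202 and 179.5. For none of the 9 was the arr TSS the nearest coding one. In all 3 replicates 7 of the 9 were matched.

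The gene of the transducer Dishevelled, dsh (X, 11355881 to 11358724, plus strand), had no IDR peak inside. Its window held a single one, at 11351401 to 11351690, in an intron of CG1737 and 4349 bp upstream of the dsh TSS. This peak had a signal of 594 and replicate signals of 166, 231 and 195, and its nearest coding TSS, that of CG1737, was 924 bp away. At the dsh TSS itself the pooled list held a region of signal 27.4 with its summit 39 bp from the TSS, far down the list at place 19507. Replicate 2 alone had a matching region, of signal 19.3, while the lists of replicates 1 and 3 had none inside dsh.

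The β-catenin gene arm (X, 1891401 to 1900646, minus strand) had 2 IDR peaks. The stronger lay in an intron, 1895 bp downstream of the nearest of its 4 TSSs (1897409 to 1897848), with a signal of 144 and 34.6, 70.4 and 41.6 in the replicates. The other was a promoter peak 56 bp upstream of a TSS (1900009 to 1900448), with a signal of 79.7, close to the lowest signal of the IDR list, 79.6. It had 29.9 and 28.2 in replicates 1 and 3 and no matching region in replicate 2.

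Pangolin, the TCF/LEF factor of the fly, is encoded by pan (4, 69326 to 114270, plus strand), which had no IDR peak inside over 44.9 kb. Its window held 1 of the 13 IDR peaks of chromosome 4, upstream of the gene and 50 bp from the TSS of the ribosomal protein gene RpS3A (67037 to 67476). The signal was 94.6, with 23.2, 55.9 and 35.6 in the replicates, and the region was not among the strongest 7096 of replicate 1. Of long protein-coding genes, 74.0% had at least that many. Inside pan the strongest pooled region had a signal of 45.2, with its summit 115 bp from a pan TSS.

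The destruction complex is represented by a scaffold and a kinase gene. Axn (3R, 30022842 to 30035311, plus strand), the scaffold gene, had no pooled region inside. The IDR peak of its window lay in an intron of Mgat2, 1595 bp upstream of the Axn TSS (30021027 to 30021466), with a signal of 103 and replicate signals of 27.7, 45.4 and 24.05. By contrast sgg (X, 2633952 to 2679553, plus strand), the gene of the fly GSK3, carried the strongest peak of the pathway. Its summit stood 200 bp upstream of 1 of its 11 annotated TSSs, and 12485 bp from the 5′ end of the gene (2646137 to 2646661). The signal was 863, place 146 of the 7096 IDR peaks, with 244, 376 and 235 in replicates 1, 2 and 3, where it held places 164, 139 and 162. A second peak, 958 bp downstream of the same TSS (2647397 to 2647783), had 463 and replicate signals of 124, 216 and 143. The remaining sgg peaks were weak, with signals of 93.6 and 94.1, and the latter was the only member peak with its summit in a coding exon.

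The feedback inhibitor gene nkd (3L, 19003741 to 19045449, minus strand), itself a target of the pathway in embryo and discs, had 10 IDR peaks, from 28842 bp downstream to 1103 bp upstream of its single TSS. The strongest lay in intron 1, 2780 bp downstream of the TSS (19042467 to 19042915), with a signal of 532 and 182, 239.6 and 114.7 in the replicates. Another peak of intron 1, at 3574 bp (19041793 to 19042040) had 416, with 135, 177 and 104 in the replicates. Upstream of the TSS, summits at 144, 346 and 1103 bp had signals of 273, 104 and 294. The first of these (19045473 to 19045708) was in all 3 replicates, with 90.3, 128 and 56.8, while the second (19045575 to 19046014) was among the strongest regions of replicate 2 only. For 9 of the 10 peaks the nkd TSS was the nearest coding one.

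**Figure D3:**
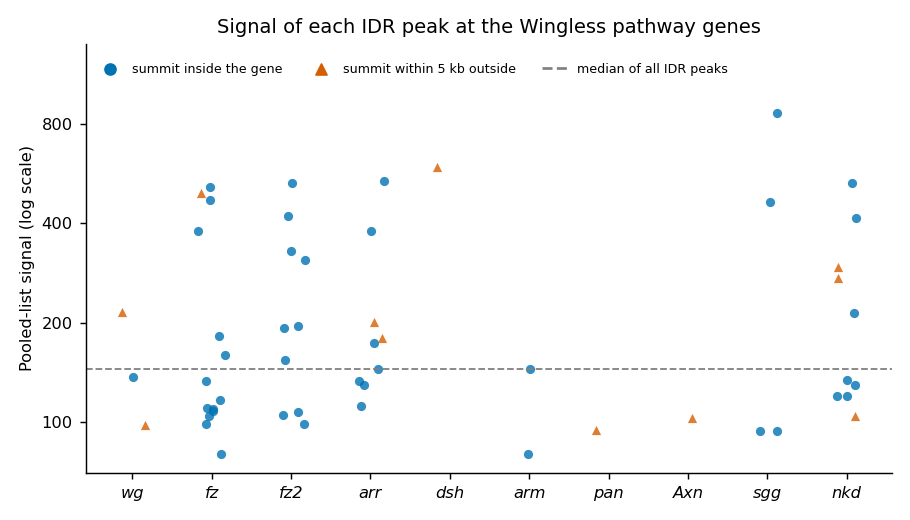
Pooled signal of each of the 55 IDR peaks by gene, on a log axis. Circles are summits inside the gene, triangles summits within 5 kb outside, and the dashed line is the median of all IDR peaks, 145.0. The genes wg, fz, fz2, arr, sgg and nkd each hold peaks both above and below that line, and the highest dot is the sgg peak at 863.

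By place, the peaks of the pathway were mostly intronic. Introns held 41 of 55 summits (74.5%, 95% Wilson interval 61.7 to 84.2), against 42.8% of all IDR peaks. Promoters, meaning within 500 bp of a TSS of any gene, held 8 (14.5%, 7.56 to 26.2), against 37.1%. All IDR peaks in the windows of long genes gave 67.9% in introns and 24.8% at promoters, nearer to the values of the pathway. Of the 8 promoter summits, 4 were at a TSS of the pathway gene itself, namely 2 at nkd and 1 each at sgg and arm. Hence 3 of the 10 genes had an IDR peak at an own TSS, against 19.8% of protein-coding genes. Among genes of 20 kb or longer the share was 30.0%, and 2 of the 6 long members, sgg and nkd, had one, so the count is near that background. No test was made of these shares, because neighbouring peaks of 1 gene are not independent, and the intervals cover the counting of regions only.

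The signals of the 55 peaks were those of the IDR list at large. Their median was 145.0, as was that of all 7096, and 27 of 55 (49.1%) lay above it. What stood higher was their number per length. The 484209 bp searched held 11.4 IDR peaks per 100 kb, against 5.30 over the chromosome arms. The strongest regions of the replicates gave 12.05 ± 1.21 per 100 kb (SD, n = 3), against 5.30 over the arms. These are pooled over all windows. Taken gene by gene, long protein-coding genes had a median of 4.22 per 100 kb, and 25% of them had 9.36 or more. Over all protein-coding genes the median was 3.76, and 25% had 9.41 or more. The share of genes at or above 11.4 was not computed, and a pooled density is not the same measure as one taken gene by gene. Within the pathway the density ran from 0.0182 peaks per kb at pan to 0.227 peaks per kb at arr.

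Agreement between the replicates was described by the matched regions. Of the 55 peaks, 42 (76.4%, Wilson interval 63.7 to 85.6) were matched in all 3 replicates, against 62.4% of all IDR peaks and 63.4% of the intronic ones. With all 30000 regions of each replicate in place of the strongest 7096, 48 of 55 (87.3%) were matched in all 3, against 87.5% of all IDR peaks, so the members no longer stood higher. Replicate 1 matched 48 (87.3%), replicate 2 matched 53 (96.4%) and replicate 3 matched 47 (85.5%), against 82.1%, 83.6% and 81.2% of all IDR peaks. No member peak was missing from the strongest regions of every replicate, but only 1.58% of all IDR peaks were. These replicates also entered the choice of IDR peaks, so the share is not an independent check of them.

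The other genes of Wnt signalling were read from a list of 31. Of these, 26 had an IDR peak inside or within 5 kb, 19 had one inside and 10 had one at an own TSS. The shares over all protein-coding genes were 52.0%, 14.2% and 19.8%. Among genes of 20 kb or longer, to which 8 of the 31 belong, they were 74.0%, 59.8% and 30.0%. By role, these counts for the window were 5 of 6 ligand genes, 6 of 7 receptor genes and 5 of 5 destruction complex genes. They were 3 of 3 extracellular modulators, 4 of 6 nuclear factors, 2 of 2 kinases and 1 of 2 secretion genes. A peak inside was held by 4 of 6 ligand, 4 of 7 receptor, 2 of 5 destruction complex and 4 of 6 nuclear factor genes. The same held for 3 of 3 extracellular modulators, 2 of 2 kinases and 0 of 2 secretion genes. The strongest window peaks of Wnt5 and fz4, for example, lay in introns of Ggt-1 and CG4615. The strongest peak stood at the promoter of gish, a casein kinase I gene, with a signal of 1665 and 503, 693 and 468 in the replicates. It was followed by gro, the gene of the co-repressor Groucho, with 683 and 216, 240.2 and 216 in the replicates. In dlp, the gene of a glypican that binds Wingless, the strongest intronic peak had 566 and replicate signals of 153, 261 and 140.1. In dco, the gene of another casein kinase I, it had 446, with 138, 190.0 and 121 in the replicates. No IDR peak was in the windows of wntD, por, Ror, lgs or pygo.

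Set beside other signalling pathways, the Wingless genes had 11.4 IDR peaks per 100 kb of window. The same density was 11.6 for the other Wnt genes, 11.2 for 9 Notch pathway genes, 12.5 for 10 genes of the Hedgehog and Dpp pathways and 12.1 for 10 EGFR pathway genes. An IDR peak in the window was held by 7 of the 9, 8 of the 10 and 8 of the 10. The share was 52.0% over all protein-coding genes, 74.0% for those of 20 kb or longer and 50.3% for shorter ones. Genes of 20 kb or longer numbered 5, 2 and 5 in these lists. The Notch list named 10 genes, but the symbol of Dl was not matched in the annotation, so Dl was not counted. No test of the pathways against each other was made.

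The base composition at the summits was measured next. The mean GC content of the 101 bp windows was 31.6% ± 6.48 (SD, n = 55 peaks), and 47.6% ± 5.85 in windows centred 300 bp away. The corresponding means over all IDR peaks were 33.3% and 45.1%. GC was lower at the summit than beside it in 52 of 55 peaks, and the mean difference, summit minus flank, was -16.0 percentage points (SD 9.53), against -11.8 (SD 12.3) for all IDR peaks. Intronic peaks alone gave -17.0 for the pathway and -12.7 for all. The replicates' own strongest regions at the genes had 32.5% ± 0.375 (SD, n = 3). The lowest summits were in the windows of fz2 and arr, each with 18.8%, and the printed nkd window had 20.8%. The one in the arr window lay outside arr, 397 bp from the TSS of cnn.

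**Figure D4:**
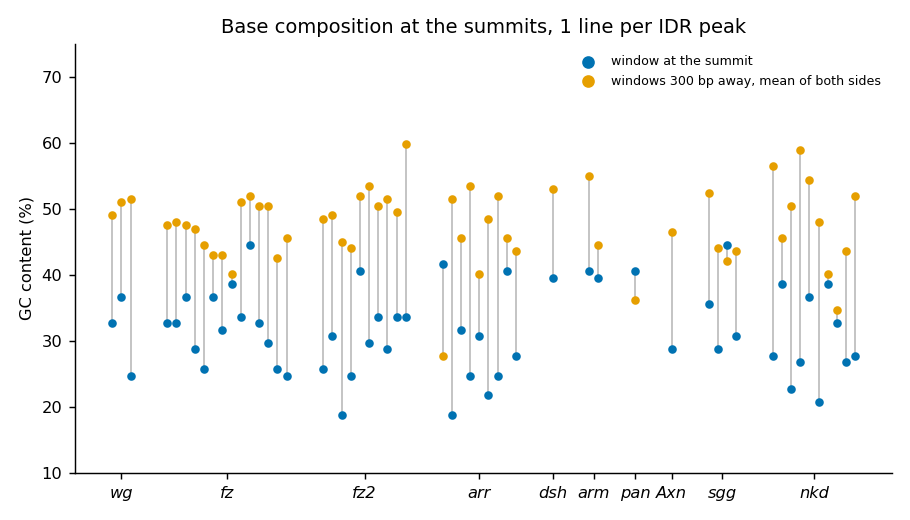
GC content (%) of each IDR peak of the 10 genes, in 101 bp at the summit (blue) and as the mean of both windows centred 300 bp away (orange), with 1 line per peak ordered by position. The blue dot is the lower one in 52 of 55 peaks, and the exceptions are 1 peak each in the windows of arr, pan and sgg.

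The motifs were searched as exact letters on both strands of the same windows. The TCF core CTTTG was in 10 of 55 windows (18.2%, Wilson interval 10.2 to 30.3), against 21.7% of all IDR windows. Its longer form CTTTGAT, which contains the core, was in 2 (3.64%, 1.00 to 12.3), against 2.00%. These were the printed windows of fz2 and Axn, the latter in an intron of Mgat2 and outside Axn. The TCF helper GCCGCC was in none, against 1.58% of all. Among other motifs, GATAA was in 15 (27.3% against 23.6%), TATAAA in 14 (25.5% against 22.1%), CGATA in 9 (16.4% against 12.5%), GAGAG in 6 (10.9% against 10.5%), and TAATTA in 4 (7.27% against 9.78%). The motif TAATATA was in 4 (7.27% against 7.91%), as was the motif TCTTAAA (7.27% against 5.61%). The longer TATCGATA, which contains CGATA, was in none, against 0.944%. Every share of all windows lay within the interval of the pathway's share. These intervals treat the peaks as independent, which peaks of 1 gene are not, so a difference was not tested. In the printed windows, dsh holds CGATA on both sides of the summit, wg, fz2 and Axn hold CTTTG, and arm holds no match.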

How the data were processed

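ChIP-seq of Plzf-eGFP was made in 3 biological replicates of whole prepupae, which form 1 group. Regions, peaks and background together, were deposited for each replicate and for the pooled replicates, with a further IDR list, per the file headers, and the dm6 versions were used here. The signal is the peak height given by the authors' caller in the deposited lists, on the scale of each list. The −log10 q-value deposited by the authors has a ceiling that many regions share, so regions were never ordered by it. Each summit was computed as the start of a region plus the offset that the authors deposited. A control library entered the calling, per the file headers. Which aligner, caller and IDR threshold were used is not given in the sources used here. Libraries have no known read depth.

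Genes and TSSs came from the Ensembl BDGP6 annotation, and bases were read from RefSeq's copy of that assembly. Summits were placed with pandas 2.3.3 and numpy 2.4.6 in Python 3.11.15, and the placing was checked on made-up genes with known answers. A replicate region matched an IDR peak when the summits lay within 100 bp, and the 7096 strongest regions of each replicate were used. Intervals are 95% Wilson intervals from scipy 1.17.1 and cover the counting of regions only. Peaks are not independent replicates, so no test was made. The members and lists were chosen with earlier results of these data known. The rule named all 10 genes, the strongest IDR peak of each, every IDR peak within 500 bp of an own TSS, the 12 strongest peaks over the genes, up to 4 other Wnt genes of highest signal, and the genes next to sgg in the order of the strongest peak. Further peaks given for wg, fz2, arr, sgg and nkd, and the list of Wnt genes without a peak, were chosen after their values were seen. Alternatives were other window sizes, signal limits, overlap rules and each replicate left out.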

Additional observations from a re-analysis of the deposited data

How the results depend on the processing

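Of the values recomputed under the alternatives, 31 were counts or densities within 1.5 times the one reported, and 6 moved further or were GC contents under another window. With the IDR list restricted to signals above its median, 27 of the 55 peaks and 2 of the 4 own-promoter peaks remained. GC content at the summits was 29.9% in windows of 25 bp on each side and 33.5% in windows of 100 bp, against 32.8% and 35.3% over all IDR peaks. Counting only peaks whose nearest coding TSS is that of the gene, an alternative chosen after seeing the data, left 6 genes and 30 peaks. The genes arr, dsh, pan and Axn had none. The share of all protein-coding genes under this rule was not computed, so the count of 6 has no background here. Leaving out 1 replicate at a time gave 9 to 10 genes with a peak, 44 to 46 peaks matched in both remaining replicates, and 9 to 10 genes with a strong region in both. This only eases the match, so the matched peaks could not fall below 42, nor the genes with a strong region below 9. It is therefore no check of these counts, and the same shares over all genes or peaks were not computed. No paired analysis was possible because there is only 1 group. Read depth is unknown from the lists, so the limit it sets on weak regions could not be given, and a region missing from a list of 30000 is not shown to be unbound.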
